A study of Homo sapiens with 20 samples.

Results

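Small RNA libraries of HCT116 cells, a human colon cancer line, were compared between DROSHA knockout cells given back full-length DROSHA (the full-length rescue, 3 libraries) and wild-type cells kept for 72 hr in normal medium with 9.1% fetal bovine serum (FBS; 3 libraries). One more library, of untreated wild-type HCT116 cells, served as a check of direction. These 7 libraries were chosen by their labels from the 20 of the series, whose title concerns a disordered domain of DROSHA and the processing of intronic microRNAs (miRNAs). The question put to them was which mature miRNAs the rescue left below the wild-type level, which it carried above it, and which it brought back to within 2-fold. Other HCT116 libraries are quoted beside these 7 in places. They are knockout cells given p140, a shorter DROSHA (3 libraries), or GFP (a single library), and wild-type cells kept for 72 hr in 0.1% FBS (3 libraries). The 3 rescue libraries share the knockout and the introduced full-length DROSHA, the wild-type libraries carry neither, and all 7 come from the same cell line. The labels give the serum only for the wild-type cells of the serum experiment, and say neither whether the knockout line is a single clone nor what drives the introduced DROSHA. Genotype, experiment, culture and sequencing depth therefore differ together between the groups, and their parts cannot be told apart. The labels do not say that replicates were separate cultures, and the p-values below therefore speak only of how much these libraries scatter, part of which may be technical.

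DROSHA is the nuclear ribonuclease that, with DGCR8, cuts the hairpin precursor of a miRNA out of its primary transcript; DICER then trims the hairpin to the mature miRNA. A small group of miRNAs reaches DICER without DROSHA, among them mirtrons, whose hairpin ends are made by splicing, and hairpins that form at the capped start of a transcript. In intestinal epithelium the miR-200 family is known for holding down the transcription factors ZEB1 and ZEB2 and so for keeping cells epithelial, while miR-21 is the miRNA best known as raised in colon tumours.

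The mature sequences of 9 miRNAs on which the results turn follow, from RefSeq (GRCh38.p14), 5′ to 3′, with the seed (bases 2 to 8) in capitals. The first 5 are the main arms of the miR-200 family, which fell furthest and which share a seed in 2 sets that differ at 1 base.
miR-200b-3p: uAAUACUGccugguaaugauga
miR-200c-3p: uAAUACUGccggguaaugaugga
miR-429: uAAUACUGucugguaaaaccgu
miR-200a-3p: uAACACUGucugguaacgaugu
miR-141-3p: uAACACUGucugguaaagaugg
The next pair lies on opposite strands of 1 locus on chromosome 14 and both members rose.
miR-203a-3p: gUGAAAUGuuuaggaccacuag
miR-203b-3p: uUGAACUGuuaagaaccacugga
The last pair gives the mirtron with the largest of the 15 named rises and the miRNA with the most reads in every library of the comparison.
miR-1229-3p: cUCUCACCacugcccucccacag
miR-21-5p: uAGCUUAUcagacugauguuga

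The rescue libraries held 764015 to 873718 miRNA reads and the wild-type serum libraries 1745624 to 1927439, and the untreated library held 856658. Between 1195 and 1297 mature miRNAs had at least 1 read in a rescue library, and between 1366 and 1400 in a wild-type serum library. Replicate 3 stood apart in both groups. Replicates 1 and 2 differed with a chi-square per degree of freedom of 4.32 in the rescue and 9.65 in wild type, and the values were 46.1 to 48.7 in the rescue and 57.7 to 84.6 in wild type for pairs with replicate 3. The values below are CPM, miRNA reads scaled to a common library total, with the SD over 3 libraries per group where a mean is given. Log2 fold changes (rescue over wild type) carry the standard error of edgeR's quasi-likelihood test, with Benjamini-Hochberg adjusted p. No use of molecular identifiers is stated, so reads are not independent molecules, and intervals and floors describe counting error alone. DROSHA itself is not measured in counts of mature miRNAs. In the single library of knockout cells given GFP, with 38288 reads, miRNAs listed as DROSHA-independent took 71.7% of reads (exact 95% binomial interval 71.3 to 72.2), against 4.21% ± 1.23 in the full-length rescue.

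Of 566 miRNAs tested, 163 (28.8%) were higher and 168 (29.7%) lower in the rescue than in wild-type cells at an adjusted p under 0.05, and 58.5% passed in either direction. A change shown to exceed 2-fold, by edgeR's test against that threshold, was found for 74 miRNAs above wild type (13.1%) and 56 below it (9.89%). The 95% interval of the fold change lay within 2-fold in either direction for 163 miRNAs (28.8%), of which 27 still passed the test of any difference. A further 99 miRNAs were neither called nor shown to be within 2-fold. The groups did not overlap for 370 miRNAs (65.4%). The filter on low counts, about 7.64 CPM in at least 3 libraries, was passed by 33 miRNAs through the wild-type libraries alone and by 39 through the rescue libraries alone.

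Directions rest on the assumption that the typical miRNA did not change. Scaling to the DROSHA-independent list in place of TMM moved the median log2 fold change of all miRNAs by about 2 units, to −2.03. Every rise and fall below is therefore relative to the typical miRNA of the libraries. That other scale is the summed reads of the list, most of them miR-320a, so members of the list are partly scaled to themselves. The untreated wild-type library gave a check that did not depend on the serum experiment. Of the 331 miRNAs called, all 3 rescue libraries lay on the called side of it for 235 with TMM scaling, which multiplied its levels by 1.46, and for 206 with library totals. Both scales placed them there for 186 miRNAs, 122 higher and 64 lower in the rescue. TMM raised the untreated levels. A rise that held with it therefore held on library totals too, and a fall that held on totals held with TMM. With TMM 122 of 163 rises and 113 of 168 falls held, and on library totals 142 and 64, so the split by direction came with the scale. The 15 largest falls and 15 largest rises described next were chosen among miRNAs with a mean of at least 100 CPM in the higher group. No overlap between groups and the same side of the untreated library with TMM were also required. All 15 falls were on that side with library totals too, and for the 15 rises this followed from the choice with TMM.

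**Figure D1:**
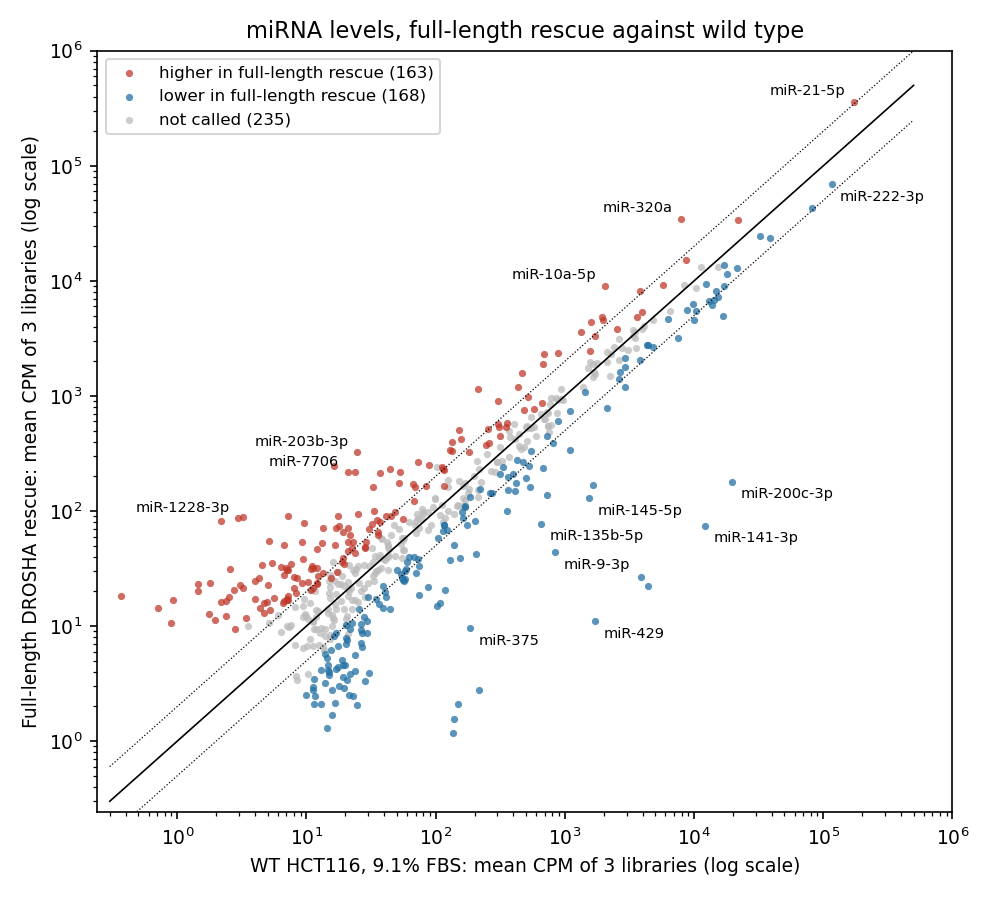
Mean level of each of the 566 miRNAs tested, in CPM on log axes, in the full-length rescue (vertical) against wild-type HCT116 cells in 9.1% FBS (horizontal), with the line of equality and dotted lines at 2-fold. The miR-200 family sits far below the lines at high wild-type levels, while most points far above them have low wild-type levels.

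The miR-200 family was almost absent from the rescued cells. All 9 of its tested mature miRNAs fell, with a median log2 change of −6.77 against −0.05 for all 566 miRNAs tested, and they filled 9 of the 15 places among the largest falls. The family took 0.0323% ± 0.0040 of reads in the rescue and 4.26% ± 0.21 in wild type (SD, n = 3 each). The untreated library gave 4.82% (exact 95% binomial interval 4.77 to 4.86). The family's 5 hairpins lie in 2 clusters of hg38, chr1:1167124-1169076 with miR-200b, miR-200a and miR-429 in a stretch with no host gene, and chr12:6963703-6964176 with miR-200c and miR-141 in an intron of MIR200CHG. Every tested member of both clusters fell.

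The member with the most reads in wild type, miR-200c-3p, had 197, 192 and 152 CPM in the rescue libraries, against 22022, 19539 and 17619 CPM in the wild-type serum libraries and 25988 CPM in the untreated one. All 3 rescue libraries were below 1 in 50 of every wild-type library, and the fitted change was −6.77 ± 0.19, 109-fold lower (adjusted p = 1.7e-09). Its neighbour miR-141-3p had 63.1, 79.0 and 81.2 CPM in the rescue, against 10040, 10863 and 15799 CPM in wild type. The change was −7.36 ± 0.24. The widest gap of the family was that of miR-200b-3p, with 16.4, 36.6 and 14.4 CPM in the rescue and 4581, 4371 and 4295 CPM in wild type, a change of −7.58 ± 0.31 or 192-fold. In none of these miRNAs did the groups come close to overlap. From the same chromosome 1 cluster, miR-429 averaged 11.0 ± 4.1 CPM in the rescue and 1711 ± 58 CPM in wild type (SD, n = 3 each). Its clustermate miR-200a-3p averaged 26.9 ± 5.5 CPM in the rescue and 3887 ± 849 CPM in wild type. The 4 passenger arms that were tested, miR-141-5p, miR-200a-5p, miR-200b-5p and miR-200c-5p, averaged 1.18 to 2.76 CPM in the rescue and 136 to 215 CPM in wild type, with changes of −6.11 to −6.68.

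The family was also scarce with p140, but less so in the knockout with GFP. With p140, a rescue with a shorter DROSHA, the family took 0.0195% to 0.0245% of reads in 3 libraries. In the knockout with GFP, where the DROSHA-independent list took 71.7% of reads, the family took 0.499%. Set against miR-21-5p, itself a product of DROSHA, the family had 0.794 to 1.00 reads per 1000 reads of miR-21-5p in the full-length rescue and 0.895 to 1.22 with p140. The knockout with GFP had 94.3 per 1000 (191 family reads), between the rescues and wild type, which had 235.5 to 267 in serum and 127 untreated. No test was made on the single libraries.

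None of the other marker miRNAs of colon epithelium was called lower. Of the 8 tested from the marker list of 9, 5 fell, all of the miR-200 family, and 2 rose, miR-203a-3p and miR-194-5p. Every rescue library was below the untreated one for miR-194-5p with TMM scaling. The intestinal miR-192-5p averaged 51.2 ± 14.4 CPM in the rescue and 54.2 ± 5.0 CPM in wild type, a change of −0.09 ± 0.24 with a 95% interval of −0.63 to 0.45, and the groups overlapped. The summed level of the list was 2651 to 3064 CPM in the rescue, against 40920 to 45193 CPM in wild type. Markers of fibroblasts and smooth muscle summed to 127 to 214 CPM in the rescue, against 1369 to 1762 CPM in wild type, and of the 3 tested only miR-145-5p was called, lower. Neural markers summed to 235 to 577 CPM in the rescue, against 2066 to 3765 CPM in wild type, and of the 4 tested the 2 arms of miR-9 were called lower. Those of blood cells summed to 37.8 to 45.8 CPM in the rescue and 56.1 to 77.3 CPM in wild type, and none of the 3 tested was called. Muscle markers summed to 27.5 to 45.8 CPM in the rescue and 5.35 to 10.9 CPM in wild type, with the 1 tested called higher and 3 of the 6 at 0 in all rescue libraries and 3 in all wild-type ones. The part of other cell types in the falls was not tested. Fewer cells of a kind and less of a miRNA per cell cannot be told apart in bulk RNA.

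Of the 6 largest falls outside the family, 4 belong to miR-375, miR-135b and miR-9, whose 5 tested mature forms all fell, with a median log2 change of −3.31. A miRNA of endocrine and secretory cells, miR-375 had 13.9, 5.72 and 9.16 CPM in the rescue, against 195, 195 and 162 CPM in wild type and 419 CPM in the untreated library. The change was −4.26 ± 0.29, and the rescue libraries lay below every wild-type library by more than 10-fold. From an intron of LEMD1, miR-135b-5p, known to target APC, averaged 77.5 ± 28.1 CPM in the rescue and 656 ± 136 CPM in wild type, a change of −3.09 ± 0.26. The neural miRNA miR-9-5p had 112, 111 and 283 CPM in the rescue, against 1128, 1282 and 2550 CPM in wild type. Replicate 3 was the highest in both groups, the groups did not overlap, and the change was −3.31 ± 0.41 (adjusted p = 9.5e-05). Its partner arm miR-9-3p fell by 4.27 ± 0.29 on the log2 scale. The 3 hairpins of miR-9 give 1 mature sequence, so its reads belong to no single hairpin.

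The remaining falls of the 15 were miR-145-5p and miR-1304-5p. The smooth muscle miRNA miR-145-5p, from an intron of CARMN, had 158, 146 and 82.5 CPM in the rescue, against 1713, 1608 and 1312 CPM in wild type, a change of −3.57 ± 0.25. The untreated library held 497 CPM, above all 3 rescue libraries and below all 3 wild-type serum libraries, so the size of this fall differs with the wild-type cells it is set against. The same order held for miR-1304-5p from TAF1D, with 14.8 ± 0.9 CPM in the rescue, 101 ± 11 CPM in wild type and 24.5 CPM in the untreated library. Its change was −2.77 ± 0.23.

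**Figure D2:**
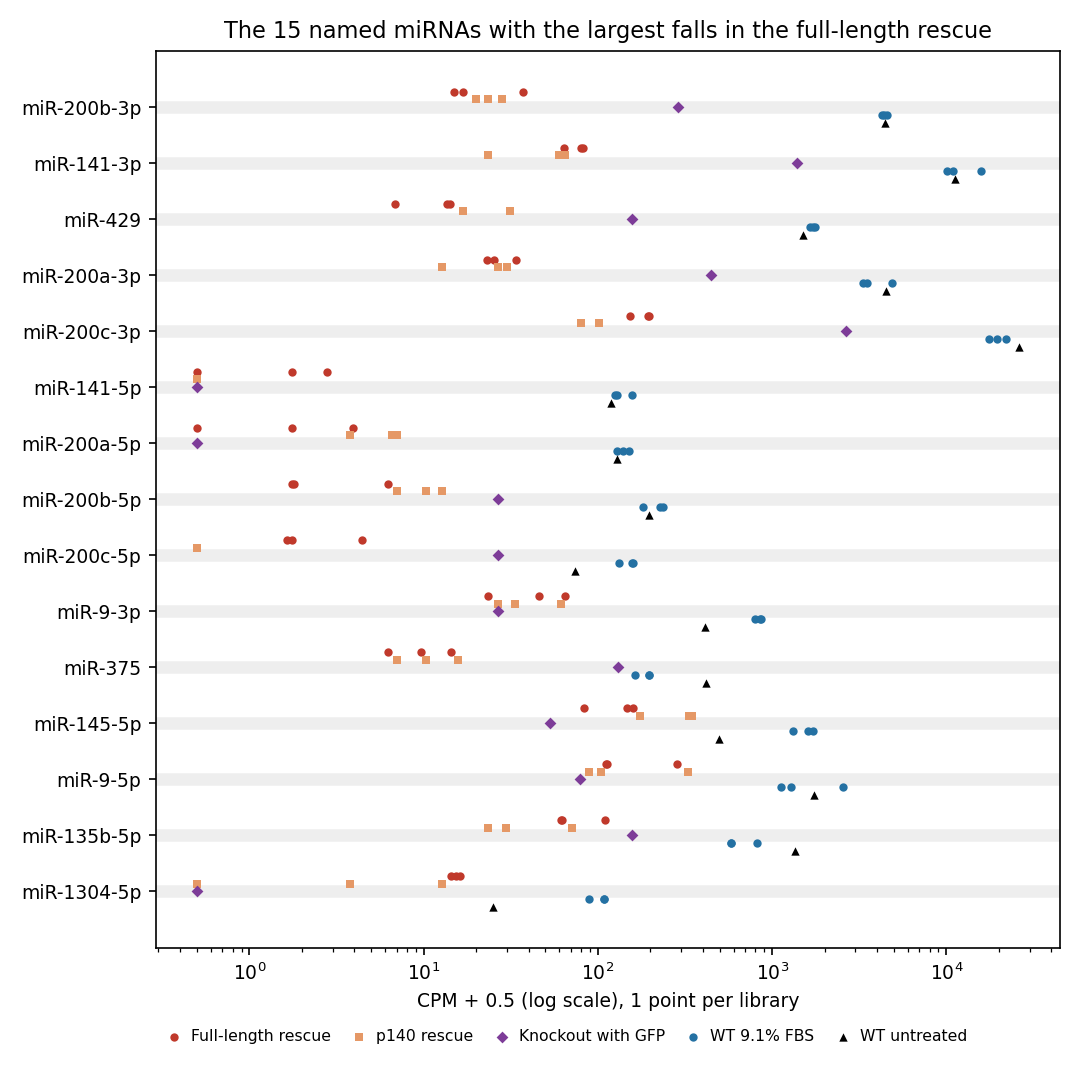
Level of the 15 miRNAs with the largest named falls in each library, as CPM plus 0.5 on a log axis, 1 point per library, for the full-length rescue, the p140 rescue, the knockout with GFP, wild type in 9.1% FBS and untreated wild type. All full-length rescue points lie left of all wild-type points, and for the main miR-200 arms the knockout with GFP lies between them.

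DROSHA-independent miRNAs were above wild type in the rescue. All 15 of the 24 listed that could be tested rose, by 1.28 to 5.35 on the log2 scale with a median of 2.14, against 28.8% of all miRNAs tested that rose. They had been listed as independent of DROSHA and the direction was known from these libraries, so the count is a description. In 7 of them the wild-type mean was below 7.64 CPM, and a high level in the rescue was what let them be tested. When scaled to the list itself, its median change was 0.15. The list took 5.13%, 4.69% and 2.81% of reads in the rescue libraries, against 1.21%, 1.00% and 0.839% in the wild-type serum libraries and 1.29% in the untreated one. The groups did not overlap (two-sided exact permutation test, p = 0.1, the smallest that 3 against 3 libraries allow). Replicate 3 had the lowest share in both groups. Most of this share was miR-320a, the hairpin at the capped start of its own transcript, with 42885, 39348 and 21960 CPM in the rescue against 9409, 7692 and 6713 CPM in wild type. Its change was 2.14 ± 0.25 (adjusted p = 5.6e-05). Without miR-320a the list took 0.737% ± 0.112 of reads in the rescue and 0.221% ± 0.050 in wild type (SD, n = 3 each).

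Among the 15 named rises, 5 were on that list. The mirtron miR-1229-3p, from an intron of MGAT4B, had 256, 262 and 226 CPM in the rescue, against 24.1, 14.4 and 10.9 CPM in wild type, a change of 3.92 ± 0.28 or 15.1-fold. Another mirtron, miR-1226-3p from DHX30, averaged 212 ± 26 CPM in the rescue and 37.1 ± 8.7 CPM in wild type. The most abundant mirtron arm, miR-877-5p from ABCF1, had 2240, 1504 and 1039 CPM in the rescue and 573, 487 and 334 CPM in wild type, a change of 1.79 ± 0.29 that was −0.27 when scaled to the DROSHA-independent list. The lowest rescue library was above the highest wild-type library in each of the 3. In an exon of SLC9A3R1, miR-3615 averaged 1160 ± 420 CPM in the rescue and 213 ± 37 CPM in wild type, a change of 2.46 ± 0.29. The first-exon hairpin miR-484 of NDE1, on the list but outside the 15, averaged 3599 ± 90 CPM in the rescue and 1343 ± 292 CPM in wild type, a change of 1.43 ± 0.17. Relatives of miR-320a rose too, miR-320d by 1.75 ± 0.26 and miR-320c by 1.57 ± 0.23, although both were below 0 at −0.33 and −0.49 when scaled to the DROSHA-independent list. Each comes from 2 hairpins of the same mature sequence. On that scale 3 of the others, miR-1226-3p (0.60), miR-3615 (0.36) and miR-320a (0.06), kept their sign but not their call. These 3 are members of the list that sets the scale. As miR-320a is most of it, a value near 0 for miR-320a was fixed in advance.

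In the knockout with GFP, 9 of the 15 named rises had at least 20 reads. Besides the mirtrons, the miR-320 relatives and miR-3615 these included miR-7706, in an exon of AKAP13, with 135 reads there. In the rescue miR-7706 had 222, 267 and 162 CPM, against 22.3, 21.4 and 18.7 CPM in wild type, a change of 3.39 ± 0.25 with no overlap. The other 7 rises are next, and of these miR-10a-5p had 32 reads in the knockout with GFP while the rest had 0 to 7, where a count of 0 allows a level of up to 78.4 CPM (3 reads).

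Both miRNAs of the miR-203 locus rose with TMM scaling. A miRNA of stratified epithelium that holds down p63, miR-203a-3p had 2158, 2238 and 2525 CPM in the rescue, against 663, 702 and 720 CPM in wild type and 1377 CPM in the untreated library. Its change was 1.73 ± 0.13, and it was −0.23 when scaled to the DROSHA-independent list. On the opposite strand miR-203b-3p had 323, 338 and 317 CPM in the rescue, against 23.5, 28.4 and 21.8 CPM in wild type, a change of 3.73 ± 0.20 (adjusted p = 2.2e-07). The groups lay more than 10-fold apart with little spread within either. The 2 mature miRNAs overlap no common base, at chr14:104117469-104117490 (plus strand) and chr14:104117428-104117450 (minus strand) of hg38, but their hairpins lie on opposite strands of the same place and whether strand was used in counting is not stated in the labels.

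The remaining rises came from other host genes. The 5p arm of miR-10a, which lies among the HOXB genes, had 7941, 8329 and 10968 CPM in the rescue, against 2116, 2196 and 1820 CPM in wild type, a change of 2.15 ± 0.15, and its partner miR-10a-3p rose by 2.37 ± 0.25. Known to target ROBO1 and carried in introns of SLIT2 and SLIT3, miR-218-5p had 182, 207 and 272 CPM in the rescue, against 15.5, 19.8 and 36.3 CPM in wild type, a change of 3.19 ± 0.31. The IGF2-hosted miR-483-3p averaged 220 ± 34 CPM in the rescue and 53.4 ± 17.1 CPM in wild type, a change of 2.05 ± 0.26. All rescue libraries exceeded all wild-type libraries for these. From an intron of DLEU2, miR-3613-5p rose by 1.86 ± 0.19, to 264 ± 46 CPM in the rescue against 72.4 ± 6.6 CPM in wild type, and was at −0.06 when scaled to the DROSHA-independent list. On that scale miR-218-5p was at 1.22 (adjusted p = 0.056), miR-10a-3p at 0.50 (adjusted p = 0.36), miR-10a-5p at 0.24 (adjusted p = 0.57) and miR-483-3p at 0.06 (adjusted p = 0.86), none past the threshold in edgeR's test.

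**Figure D3:**
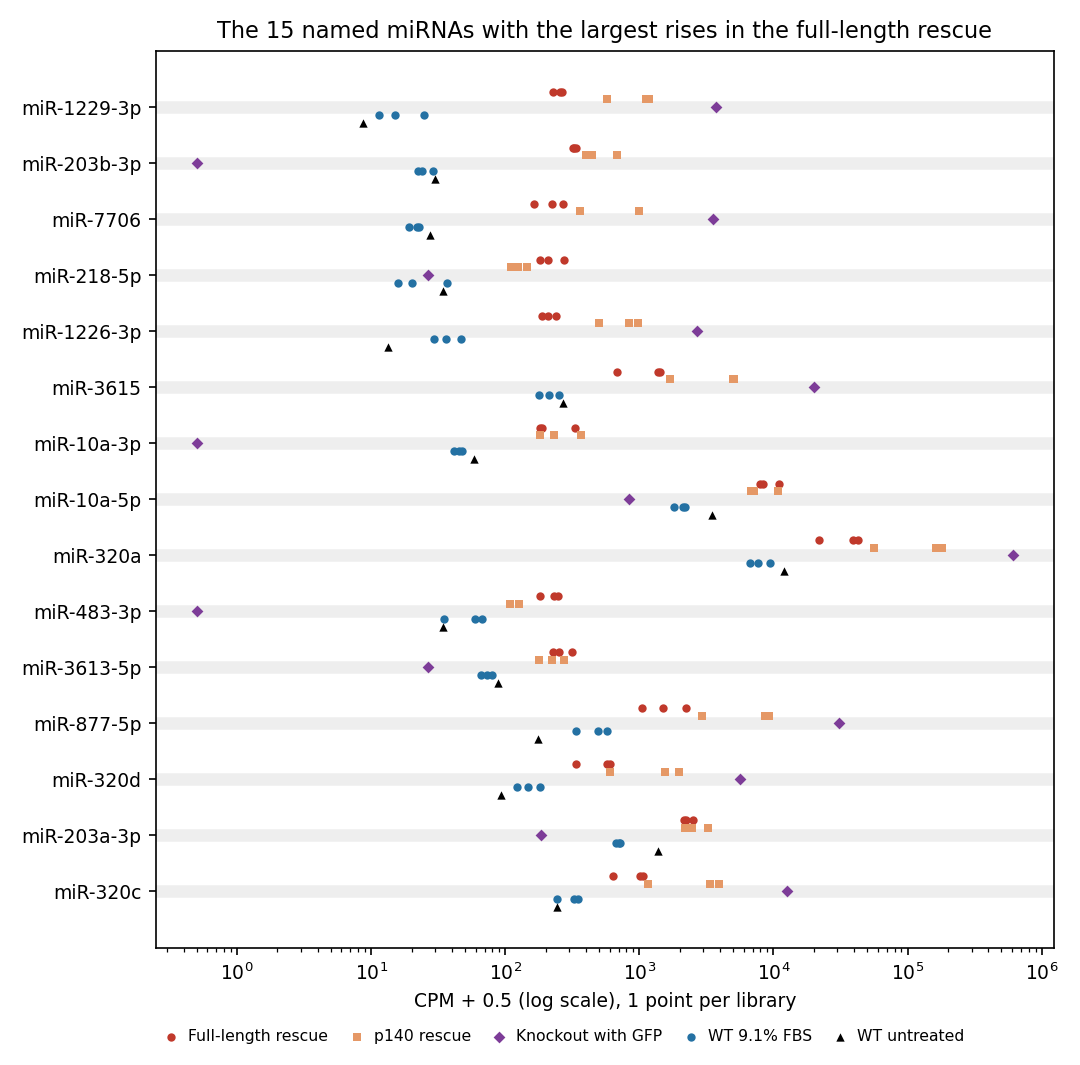
Level of the 15 miRNAs with the largest named rises in each library, as CPM plus 0.5 on a log axis, 1 point per library, for the full-length rescue, the p140 rescue, the knockout with GFP, wild type in 9.1% FBS and untreated wild type. All full-length rescue points lie right of all wild-type points, and the DROSHA-independent miRNAs lie further right still in the p140 rescue and the knockout with GFP.

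Of the 10 most abundant miRNAs of wild-type cells, 2 rose and 8 fell in the rescue, and all but miR-200c-3p had fitted changes of about 2-fold or less. The most abundant, the oncogenic miR-21-5p from the VMP1 locus, took 34.8%, 36.7% and 36.6% of reads in the rescue libraries, against 15.8%, 17.0% and 19.1% in the wild-type serum libraries. The change was 1.06 ± 0.10 (adjusted p = 1.8e-05), without overlap. The untreated wild-type library gave 37.9%, above all 3 rescue libraries, so that the rise was present against one kind of wild-type library and not against the other. With the untreated library added to the wild-type group, the change of miR-21-5p was 0.38 with an adjusted p of 0.51, and scaled to the DROSHA-independent list it was −0.93.

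The neighbours miR-221 and miR-222, which hold down the cell cycle inhibitor p27, showed a like split. The major arm miR-222-3p averaged 69235 ± 10600 CPM in the rescue and 115825 ± 11564 CPM in wild type, a change of −0.74 ± 0.14. For miR-221-3p the values were 45719, 45821 and 37765 CPM in the rescue, against 83170, 82078 and 78493 CPM in wild type, a change of −0.91 ± 0.12. The untreated library had 64843 CPM of miR-222-3p and 42513 CPM of miR-221-3p, in each case between the lowest and highest rescue library on library totals. All 4 mature forms of the pair fell, with a median log2 change of −0.80. With TMM scaling all 3 rescue libraries were below the untreated one for both major arms. For the passenger arms miR-221-5p and miR-222-5p all 3 were above it on that scaling. The rescue averaged 734 CPM of miR-221-5p and 2636 CPM of miR-222-5p, and the untreated library held 341 and 1104 CPM. The falls of these passenger arms were therefore present against the serum libraries only.

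The other abundant miRNAs changed less than 2-fold, miR-200c-3p apart. The growth-restraining let-7a-5p averaged 24749 ± 2448 CPM in the rescue and 32247 ± 1603 CPM in wild type, a change of −0.38 ± 0.10, and the 3 hairpins that encode it cannot be told apart. The MIR31HG-hosted miR-31-5p fell by 0.71 ± 0.11, and miR-100-5p of MIR100HG by 0.63 ± 0.14. Known for repressing collagens, miR-29a-3p averaged 33685 ± 941 CPM in the rescue and 21726 ± 4470 CPM in wild type. Its change was 0.63 ± 0.15, it was −1.37 when scaled to the DROSHA-independent list, and the untreated library held 31573 CPM. The miR-17/miR-92 member miR-92a-3p fell by 0.75 ± 0.13 and miR-7-5p, which holds down EGFR, fell by 0.92 ± 0.14. The rescue averaged 9101 ± 1431 CPM of miR-7-5p and the untreated library held 5687 CPM, so on library totals the rescue was above untreated cells while below the serum libraries at 17170 ± 2035 CPM.

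**Figure D4:**
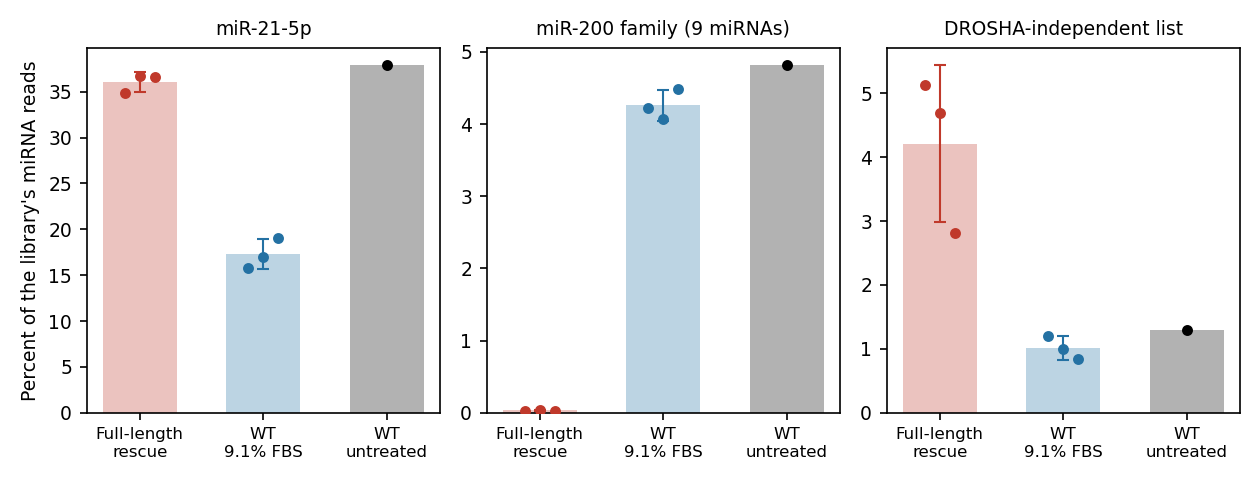
Share of each library's miRNA reads, in percent, taken by miR-21-5p, by the 9 mature miRNAs of the miR-200 family and by the DROSHA-independent list, with bars at the group mean, error bars of 1 SD over 3 libraries and 1 point per library. Untreated wild type is a single library with no error bar, and it sits with the rescue for miR-21-5p but with the serum libraries for the miR-200 family and the DROSHA-independent list.

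Most members of the let-7 family, which restrains growth, were within 2-fold of wild type, and most of the miR-17/miR-92 cluster fell. Of 19 tested let-7 miRNAs, 15 had a 95% interval within 2-fold, against 28.8% of all miRNAs tested, while 6 fell and 2 rose. The miRNAs of any family within 2-fold had a median wild-type level of 314 CPM, against 46.3 CPM over all tested. The part of level in such shares was not tested. All rescue libraries were above the untreated one for the fall of let-7f-1-3p, and below it for the rise of let-7i-5p, with TMM scaling. The largest let-7 difference was that of let-7c-5p, at 153 ± 23 CPM in the rescue and 363 ± 91 CPM in wild type, a change of −1.25 ± 0.21. Of the mature miRNAs of the MYC-driven miR-17/miR-92 cluster, 8 of 12 fell and 0 rose, with a median of −0.86, against 29.7% of all miRNAs tested that fell. Of the 12, miR-19b-3p and miR-92a-3p are also encoded by hairpins outside the cluster. Its miR-17-5p had 5861, 5249 and 9336 CPM in the rescue, against 13829, 13476 and 15612 CPM in wild type and 6064 CPM in the untreated library, which lay within the range of the rescue on library totals. Its change was −1.08 ± 0.18. The untreated library also held 6656 CPM of miR-20a-5p and 3964 CPM of miR-19a-3p, against rescue means of 6647 ± 2421 and 4612 ± 689 CPM. With TMM scaling all rescue libraries were above it for miR-19a-5p and miR-19b-1-5p, and on both sides of it for miR-18a-3p. For the other members that fell, all rescue libraries were below it on that scaling. Of the related miR-106b/miR-25 cluster in an MCM7 intron, 5 of 6 were within 2-fold and 2 fell.

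The miR-23/miR-27/miR-24 clusters fell in 8 of 11 members with a median of −0.94, and miR-23a-3p fell most, to 4923 ± 414 CPM in the rescue against 16699 ± 3675 CPM in wild type, a change of −1.76 ± 0.17. The untreated library held 7937 CPM of it. Among the falls of these clusters, the rescue libraries lay on both sides of the untreated one for miR-23b-5p with TMM scaling. Over all miRNAs tested the shares were 29.7% lower and 28.8% within 2-fold. Of the 14 tested members of the CLCN5 intronic cluster, 7 fell and 6 were within 2-fold. Of the 7, only miR-502-5p and miR-502-3p were below the untreated library in every rescue library with TMM scaling. All rescue libraries were above it for miR-500a-5p, miR-500b-5p and miR-501-3p, and on both sides of it for miR-532-3p and miR-362-5p. Both miR-500a-5p and miR-500b-5p averaged 76.2 CPM in the rescue, with 115.4 and 115.6 CPM in wild type, and may be the same reads. The FTX intronic cluster had 5 of 7 members within 2-fold and 1 that fell. Its miR-374a-5p had 3730, 3758 and 3760 CPM in the rescue and 3248, 3367 and 3575 CPM in wild type, a change of 0.14 ± 0.12 with a 95% interval of −0.12 to 0.40. With p140 the same miRNA had 275 to 486 CPM.

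Most tested members rose in the families of miR-34, miR-181, miR-10/miR-196 and miR-424/miR-503, against 28.8% of all miRNAs tested. The p53 target miR-34a-5p had 4163, 4174 and 4931 CPM in the rescue, against 1209, 1164 and 2437 CPM in wild type, a change of 1.46 ± 0.26 without overlap. The 3 tested miR-34 miRNAs rose (median 1.46, and −0.55 when scaled to the DROSHA-independent list), of which miR-34c-5p, at 11.3 CPM in the rescue and 1.97 CPM in wild type, could be tested only through the rescue. Of 8 tested miR-181 miRNAs 7 rose (median 1.03, and −0.98 on that scale), led in level by miR-181a-5p at 8149 ± 1053 CPM in the rescue and 3797 ± 81 CPM in wild type. From the HOX loci 5 of 8 rose (median 0.96, and −1.08 on that scale), among them miR-196b-5p at 4841 ± 639 CPM in the rescue and 1935 ± 56 CPM in wild type. In the growth-regulated miR-424/miR-503 cluster 5 of 7 rose (median 0.81, and −1.16 on that scale), with miR-503-5p at 422 ± 37 CPM in the rescue and 157 ± 20 CPM in wild type. With TMM scaling, 3 of these 5 (miR-424-5p, miR-424-3p and miR-542-3p) were below the untreated library in every rescue library. The same held for miR-181c-5p, miR-181d-5p and miR-10b-5p. For miR-181a-5p, miR-181a-2-3p and miR-34c-5p the rescue libraries lay on both sides of the untreated one. Before that scaling miR-424-5p averaged 517 CPM in the rescue and had 674 CPM in the untreated library. The hypoxia-linked miR-210-3p was at 1194 ± 125 CPM in the rescue and 435 ± 170 CPM in wild type, a change of 1.45 ± 0.25.

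The other families were mixed, and shares near 28.8% higher, 29.7% lower or 28.8% within 2-fold are those of all miRNAs tested. Of 7 tested miR-29 miRNAs 5 were within 2-fold, 1 rose and 1 fell. For miR-30 the counts were 6 of 10 within 2-fold, 3 that rose and 1 that fell. Of the sensory-cell cluster miR-183/miR-96/miR-182, 5 of 6 were within 2-fold and miR-182-5p rose. With TMM scaling miR-182-5p, and miR-29a-3p and miR-30e-5p among the rises before it, were below the untreated library in every rescue library. The miR-130/miR-301/miR-454 seed family had 6 of 10 within 2-fold and 3 that rose. In the miR-15/miR-16 family 3 of 9 fell and 1 rose. Of these falls, miR-15a-3p and miR-15b-3p were above the untreated library in every rescue library with TMM scaling. The rescue libraries lay on both sides of it for the other fall, miR-15b-5p, and for the rise, miR-497-5p. For miR-99/miR-100 and miR-125, 2 of 9 fell and 1 rose. The pair from the miR-106a/miR-363 cluster that could be tested, miR-106a-5p and miR-18b-5p, fell by a median of 1.86 on the log2 scale. For both, all rescue libraries were below the untreated one with TMM scaling. On library totals miR-106a-5p averaged 337 ± 59 CPM in the rescue and 1100 ± 85 CPM in wild type, and the untreated library held 286 CPM. Of the 2 tested miR-146 miRNAs, miR-146a-5p rose, to 16.2 ± 6.4 CPM in the rescue against 2.17 ± 0.57 CPM in wild type, and it too passed the filter only through the rescue. For miR-146a-5p the rescue libraries lay on both sides of the untreated one with TMM scaling.

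**Figure D5:**
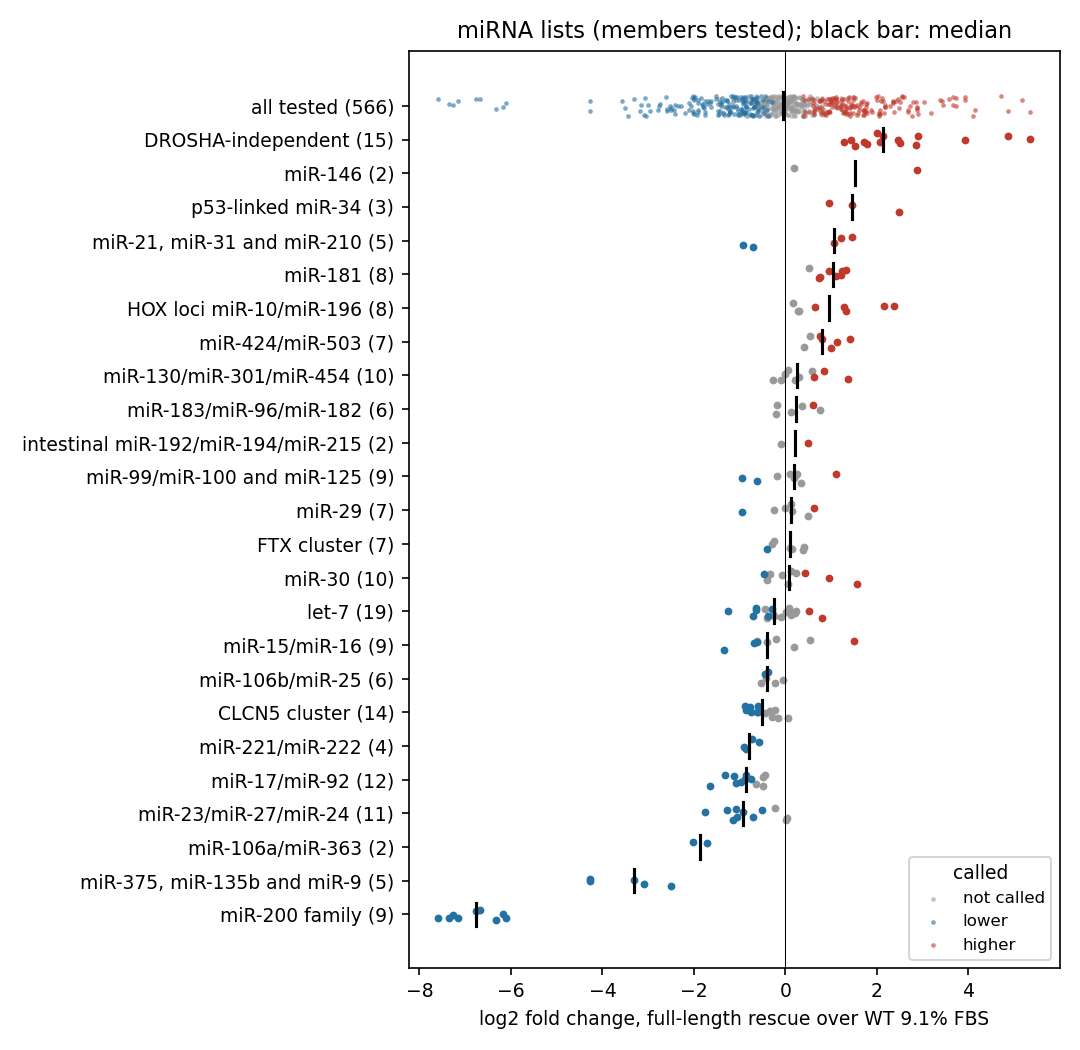
Log2 fold change, full-length rescue over wild type in 9.1% FBS, of every tested miRNA in each list, with the number tested in brackets, the median as a black bar and the colour showing the call at an adjusted p under 0.05. The DROSHA-independent list lies wholly above 0 and the miR-200 family lies beyond −6; on the scale of the DROSHA-independent list all values lie about 2 units lower.

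Hairpins inside introns were set apart from those in exons or between genes, by GENCODE 29 gene models of hg38, leaving out hairpins of mixed position and the DROSHA-independent list. Of 327 intronic miRNAs, 69 rose and 109 fell, with a median change of −0.21. Of 133 exonic or intergenic ones, 50 rose and 33 fell, with a median of 0.18, a difference of −0.40. Over all 566 miRNAs tested, 28.8% rose and 29.7% fell. Mean levels on the log2(CPM + 1) scale were also compared per library, as intronic miRNAs minus the others. This gap was 0.05 ± 0.10 in the rescue and 0.33 ± 0.03 in wild type (SD, n = 3 each). It was −0.04 in rescue replicate 1, and no rescue library reached a wild-type one (two-sided exact permutation test, p = 0.1, the smallest possible). With mixed hairpins counted as intronic the gaps were 0.11 ± 0.09 and 0.28 ± 0.03, and the difference of medians was −0.32. The difference of medians was −0.24 without wild-type replicate 2 and −0.25 with the untreated library added to the wild-type group. Of the 15 largest named falls, 8 were intronic by the position of the hairpin copy kept, among them the arms of miR-200c and miR-141. The 327 intronic miRNAs were classed by all copies, so the 2 counts are not set against each other.

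Both arms of a pair come from the same hairpin, and they mostly changed together. In 154 hairpins both arms were tested, 125 had changes of the same sign and the median distance between the arms was 0.40 on the log2 scale. Both arms were called in 61 hairpins, 30 with both lower and 31 with both higher, and in 0 were they called in opposite directions. The arms differed by more than 1 in 15 hairpins. In miR-23a the 3p arm fell by 1.76 ± 0.17 while the 5p arm was at 0.01 ± 0.42, with 112 ± 57 CPM in the rescue and 112 ± 47 CPM in wild type. In its neighbour miR-27a the 3p arm fell by 1.07 ± 0.12 and the 5p arm was at 0.04 ± 0.20. In miR-3613 the 5p arm rose and the 3p arm was at 0.22 ± 0.37. These differences between arms were not tested.

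In a minority of clusters all tested members were called the same way. Hairpins within 10 kb on 1 strand were taken as 1 locus, and 37 loci with at least 2 hairpins had 2 or more tested miRNAs. All tested members fell against the wild-type serum libraries in 5 of these. They were both miR-200 clusters, the miR-221/miR-222 and miR-106a/miR-363 clusters on the X chromosome and a cluster on chromosome 14. All rose in 2, the chromosome 1 copy of the miR-181 passenger arms and the pair of miR-1227-3p and miR-6789-5p, whose wild-type means of 4.03 and 1.80 CPM were below the filter of 7.64 CPM, so that only their level in the rescue let them be tested. Members of 1 locus, that of miR-33b and miR-6777, moved in both directions.

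The miRNAs that rose differed from those that fell in base composition and in wild-type level, which is itself part of the fold change. Those that rose had a median wild-type level of 19.6 CPM and those that fell 115.5 CPM, against 46.3 CPM over all 566 tested. A gap in this direction follows in part from how calls are made. The 39 miRNAs that passed the filter through the rescue alone and the 33 through wild type alone add to it. Those miRNAs and the DROSHA-independent list were kept in all medians here. The median GC content of the mature sequence, known for 497 of them, was 56.5% in miRNAs that rose and 47.8% in those that fell, with quartiles of 40.9% and 59.1% over all tested. For changes over 2-fold the medians were 60.9% in those that rose and 45.5% in those that fell. These are descriptions, and the part of level or base composition in the calls was not tested.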

How the data were processed

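Small RNA selected by size on a gel was ligated to randomized adaptors and read on a MiSeq, per the labels' protocols. The submitters' processing notes name cutadapt, STAR, bedtools and hg38. No source used here states the miRNA annotation release, the strand setting or the treatment of multiply mapped reads. The authors deposited raw read counts, unscaled, for each mature miRNA of each hairpin, with 2813 values for 2588 mature miRNAs per library. For the 167 with several hairpins, the copy with the highest total was kept.

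The 6 libraries were fitted in edgeR 4.0.16 under R 4.3.3 (TMM scaling, filterByExpr with a minimum count of 10, quasi-likelihood F test, Benjamini-Hochberg adjustment over 566 miRNAs, threshold 0.05, two-sided; glmTreat for changes over 2-fold) after the script was tested on simulated data. Named were the 15 largest falls and rises meeting the conditions given above, the 10 miRNAs most abundant in wild type, and list members. The members and lists were chosen with earlier results of these data known. Deviations of same-numbered libraries from their group means correlated at 0.33, 0.19 and 0.39 (516 miRNAs), all above 0.1 (differently numbered pairs, −0.34 to 0.16), so a fit with the replicate number as a block was also run; the labels state no shared origin. Other alternatives were DESeq2 1.42.0, other scalings, filters, depth and left-out libraries.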

Additional observations from a re-analysis of the deposited data

How the results depend on the processing

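No miRNA called in one direction was called in the other under any alternative except scaling to the DROSHA-independent list, which gave 18 higher and 442 lower (96.1% lower, against 50.8%) and put 46 of the miRNAs called higher among the lower; the cause was the shift of all values by that scaling, to a median of −2.03. On it miR-3613-5p (−0.061), miR-877-5p (−0.27), miR-320d (−0.33), miR-203a-3p (−0.23), miR-320c (−0.49), miR-21-5p (−0.93) and miR-29a-3p (−1.37) changed sign, and the calls of 7 more named rises were lost, those of miR-218-5p, miR-1226-3p, miR-3615, miR-10a-3p, miR-10a-5p, miR-320a and miR-483-3p. No filter on low counts gave 208 higher and 277 lower of 1967. Adding the untreated library to wild type gave 196 calls, 97 higher and 99 lower, and ended the calls of miR-21-5p (0.38), let-7a-5p (−0.62) and miR-29a-3p (0.24); the cause was not tested. The test against 2-fold gave 130 calls by its construction. Leaving out 1 library gave 130 to 200 higher, 132 to 213 lower and 262 to 413 in all. The replicate block gave 187 higher and 202 lower and changed no call of a named miRNA. Without the replicates numbered 3, an alternative chosen after seeing the data, the counts were 208 and 223.

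The intronic difference of medians lay between −0.47 and −0.24 with 1 library left out, and was −0.25 with the untreated library added. The rise in the DROSHA-independent share, 3.19 percentage points, lay between 2.74 and 3.89 with 1 library left out and was 0.515 without miR-320a. DESeq2 gave 161 and 154, library totals 163 and 166, thinning to one depth 124 and 138, and summing copies 172 and 167. Counting error alone leaves values of the untreated library with at least 10 reads uncertain to between 48.0% and 184% of the value.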

Other observations

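The imprinted DLK1-DIO3 cluster at chr14:101025782-101065661 of hg38, singled out after its values were seen, was lower in the rescue in all 13 of its tested miRNAs, by 1.26 to 3.05 on the log2 scale with a median of 2.00 (edgeR's quasi-likelihood test, adjusted p of at most 0.046). Their summed level was 35.3, 33.2 and 98.2 CPM in the rescue libraries, against 231, 244 and 233 CPM in the wild-type serum libraries. Replicate 3 of the rescue stood above its other libraries. The untreated library held 74.7 CPM, below rescue replicate 3 and above the other 2. All 3 rescue libraries were below it for 5 of the 13 on library totals and for 8 with TMM scaling. In wild-type cells kept in 0.1% FBS the sum was 122 to 154 CPM.

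Rises over 8-fold were mostly those of miRNAs with few reads in wild type. Of the 18, the largest were miR-1228-5p at 5.35 ± 0.74, miR-3929 at 5.18 ± 0.31 and miR-1228-3p at 4.87 ± 0.47, named after their values were seen. The mirtron arm miR-1228-3p had 99.6, 96.1 and 65.4 CPM in the rescue libraries, against 5.73, 2.67 and 0.519 CPM in the wild-type serum libraries. Fitted changes of miRNAs this low in 1 group depend on the prior count.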
